A study of Homo sapiens with 2 samples.

Results

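The 9 genes described here, CCND1, ORAOV1, FGF3, FGF4, FGF19, FADD, PPFIA1, CTTN and SHANK2, lie within about 1 Mb of each other, among other genes, at chromosome band 11q13, a segment that is often amplified in oesophageal squamous carcinoma. They were taken by the gene name in the array's annotation, which gave 14 of the 45033 features and 9 of the 23619 genes with an identifier. On build HG18 the records behind these features spanned chr11:69165054-70185520. The cells were TE-1, an established human oesophageal cancer line, transfected either with pcDNA3.1 carrying PAX2 or with empty pcDNA3.1, and total RNA was taken 24 h later. Each group was 1 single-colour Cy3 NimbleGen array. The differences below therefore describe these 2 arrays, without replicates and without p-values, and their precision is limited by that number. The share of cells that took up the plasmid is not given in the sources used here, and in RNA of a whole culture a change in some cells cannot be told apart from a smaller change in all of them.

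Cyclin D1, the product of CCND1, binds CDK4 and CDK6, and the active kinases phosphorylate the retinoblastoma protein, which lets cells pass from G1 into S phase. In tumours with the 11q13 amplification its gene sits at the core of the amplicon. The genes around it are then copied with it, whether or not they are expressed. The copy number of this segment in the TE-1 cells was not measured here. PAX2 is a DNA-binding regulator of the paired-box family that directs the formation of the kidney, and the series asks which genes it activates in TE-1 cells.

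The PAX2 feature itself had an intensity of 22.1 on the array labelled as PAX2 vector and 22.2 on the control array, close to the random-sequence probes (19.3 and 20.6). The arrays therefore give no check of the label, and the first is called PAX2-labelled throughout. Whether the plasmid was expressed, and whether it carries the portion of the transcript that the probes match, was not tested. Over all features the median intensity was 210 on the PAX2-labelled array and 205 on the control array. Of 14 epithelial markers 7 were measured, among them KRT8, KRT18, DSP and SFN, with log2 differences from 0.17 for KRT14 to 0.72 for KRT5, none of them 2-fold; 53.5% of all measured genes were above 0. The other 7, CDH1, EPCAM, TP63, KRT6A, KRT15, KRT19 and DSG3, were below the filter on both arrays, with differences from -0.73 for DSG3 to 0.15 for TP63. Of 7 leukocyte markers CD68 was measured (288 against 418), of 5 endothelial markers none, and of 7 fibroblast markers DCN (555 against 522) and COL1A1 (1012 against 734).

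A gene or feature counted as measured if its mean log2 intensity was at or above the median feature of at least 1 array. By this filter CCND1, ORAOV1, FADD, PPFIA1 and CTTN were measured, with 9 features, and FGF3, FGF4, FGF19 and SHANK2 were not, with 5 features. None of the 5 measured members was at least 2-fold higher or lower on the PAX2-labelled array, where 1.13% of the 11636 measured genes were 2-fold higher and 1.16% were 2-fold lower (2.29% in either direction). None of the 5 reached 1.5-fold either, which 7.71% of measured genes did. Of the 9 measured features none was 2-fold higher or lower, where 1.66% of all 22705 measured features with a gene identifier were 2-fold higher and 1.43% were 2-fold lower. Only 1 of the 9, a CTTN feature, passed 1.5-fold (10.6% of measured features). The 5 measured members had a median log2 difference of 0.16, with 3 above 0 and 2 below, beside 0.02 for all measured genes.

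**Figure D1:**
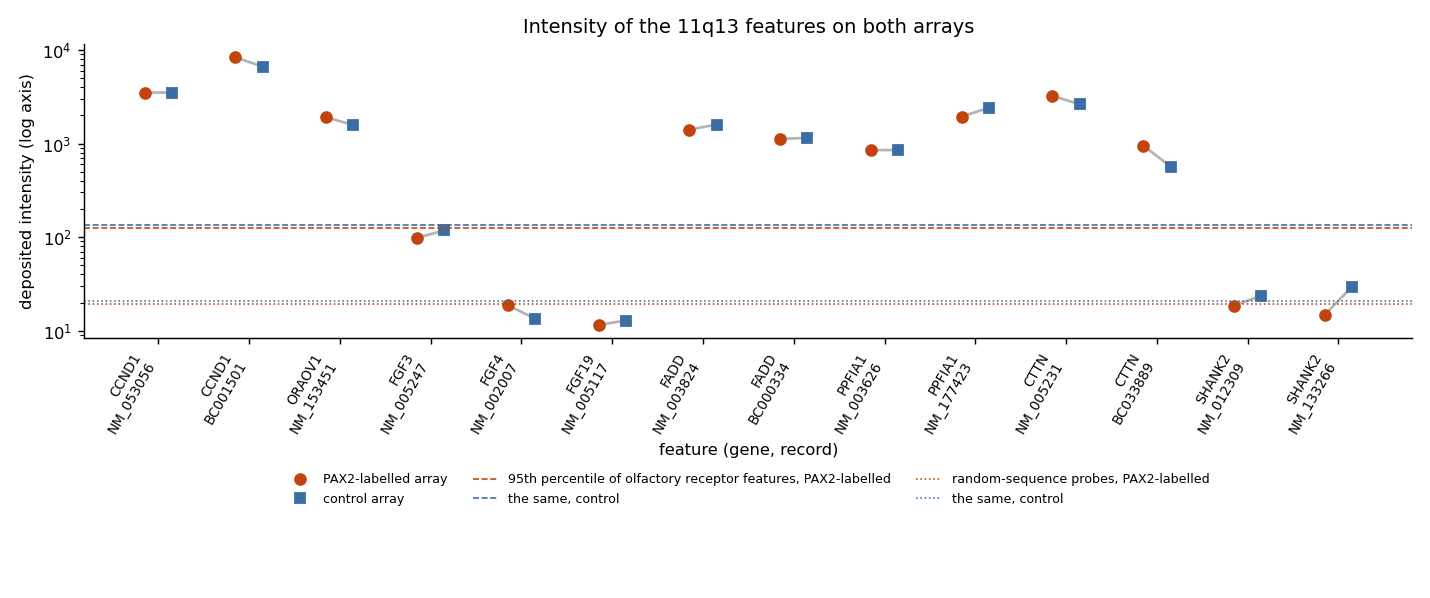
Deposited intensity (log axis) of the 14 features of the 9 genes on the PAX2-labelled array (circles) and the control array (squares), joined by a line for each feature. Dashed lines are the 95th percentile of the olfactory receptor features on each array (126 and 134) and dotted lines the random-sequence probes (19.3 and 20.6). The 9 features of CCND1, ORAOV1, FADD, PPFIA1 and CTTN lie above the dashed lines, and the 5 features of FGF3, FGF4, FGF19 and SHANK2 lie below them.

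CCND1 had 2 features. The feature for NM_053056 (chr11:69165054-69178423) had an intensity of 3511 on the PAX2-labelled array and 3507 on the control array, a log2 difference of 0.0020. The feature for BC001501 (chr11:69165120-69175408), a record whose span ends 3015 bases before that of NM_053056, had 8347 on the PAX2-labelled array and 6658 on the control array, 1.25-fold higher. One CCND1 feature was thus level between the arrays and the other slightly brighter on the PAX2-labelled array. The mean over both was 0.16 on the log2 scale, or 1.12-fold, and 51.6% of measured genes differed at least as much in either direction. The gap of 0.32 between the CCND1 features was larger than the difference itself.

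ORAOV1, now called LTO1, encodes a partner of YAE1 in the maturation of the iron-sulphur protein ABCE1, which recycles ribosomes. Its single feature (NM_153451, chr11:69189512-69199346) had an intensity of 1907 on the PAX2-labelled array and 1578 on the control array. It was 1.21-fold higher (log2 difference 0.27), and 30.5% of measured genes differed at least as much. With 1 feature no second measurement of the gene could be set beside it.

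FADD encodes the adaptor that links death receptors such as FAS to caspase-8. Its NM_003824 feature (chr11:69726917-69731144) had an intensity of 1409 on the PAX2-labelled array and 1597 on the control array. Its BC000334 feature (chr11:69727069-69731134) had 1124 on the PAX2-labelled array and 1151 on the control array. Both were slightly dimmer on the PAX2-labelled array, with log2 differences of -0.18 and -0.03, and their mean of -0.11 was smaller in size than that of 66.7% of measured genes.

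PPFIA1 encodes liprin-alpha-1, a scaffold at focal adhesions and the cell edge. Its NM_177423 feature (chr11:69794471-69902146) had an intensity of 1946 on the PAX2-labelled array and 2411 on the control array, 1.24 times as high on the control array. Its NM_003626 feature (chr11:69794471-69908150) had 850.0 on the PAX2-labelled array and 855 on the control array. One feature was dimmer on the PAX2-labelled array and the other level, which gave a mean log2 difference of -0.16, and 53.0% of measured genes differed at least as much.

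CTTN encodes cortactin, an actin-binding protein that stabilises branched filaments at lamellipodia and invadopodia. Its NM_005231 feature (chr11:69922292-69960329) had an intensity of 3239 on the PAX2-labelled array and 2628 on the control array. Its BC033889 feature (chr11:69922295-69960333) had 954 on the PAX2-labelled array and 568 on the control array. Both were brighter on the PAX2-labelled array, 1.23-fold and 1.68-fold, although their records cover nearly the same span. The mean log2 difference of 0.52 (1.44-fold) was the largest in size of the 5 measured members, and 9.99% of measured genes differed at least as much. The gap of 0.45 between its features was reached by 23.1% of the 3832 genes with 2 measured features, whose median gap was 0.24.

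All 4 measured members with 2 features had both on the same side of 0, which 58.9% of all genes with 2 measured features did. This count was 3 of 4 after centring, quantile normalization or loess, where the nearly level NM_053056 feature of CCND1 fell just below 0 (-0.03, -0.02 and -0.01). The spread of the difference depended on brightness, so each feature was set beside all features of its decile of mean log2 intensity. All 9 measured features lay inside the range that holds the central 95% of the differences in their decile. The BC033889 feature of CTTN, at 0.75, was nearest to its limit (-0.66 to 0.84). The BC001501 feature of CCND1, at 0.33, lay within a range of -0.43 to 0.57, and the NM_177423 feature of PPFIA1, at -0.31, within -0.47 to 0.65. Features of 1 gene scattered around their mean difference with an SD of 0.31 for a single feature (pooled over 6170 genes with several measured features). The differences of CCND1, ORAOV1, FADD and PPFIA1 were smaller in size than this. Those of CCND1, FADD and PPFIA1 are means of 2 features, which scatter less than a single feature. This SD comes from within the same 2 arrays and does not measure variation between cultures.

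**Figure D2:**
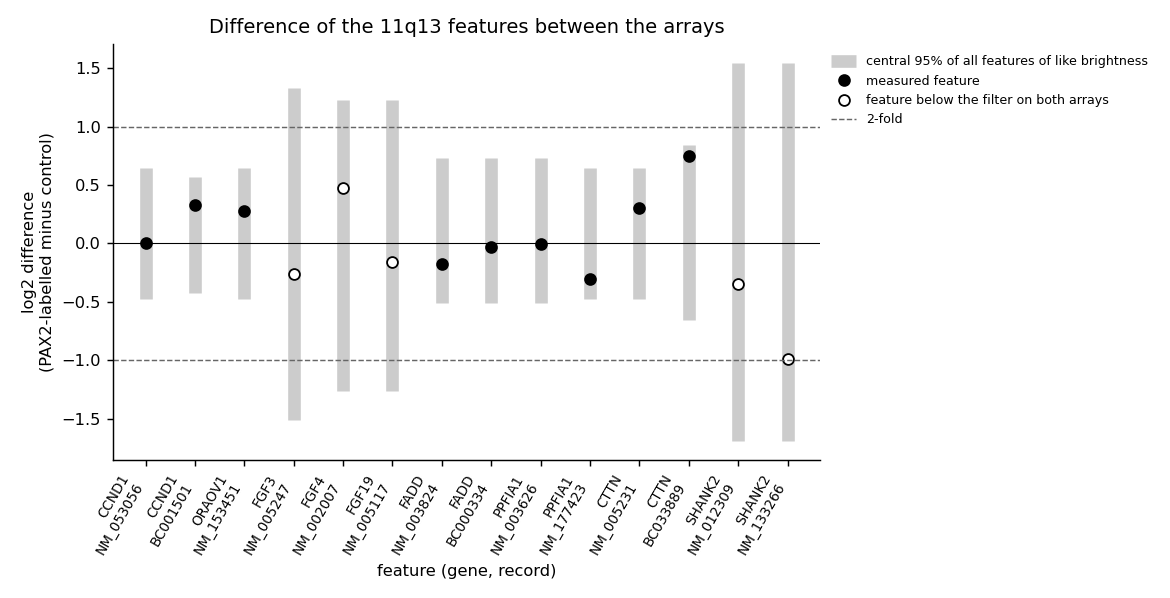
Log2 difference (PAX2-labelled minus control) of the 14 features, filled where measured and open where below the filter on both arrays. Grey bars span the central 95% of the differences of all features in the same decile of brightness and dashed lines mark 2-fold. The 9 filled points lie inside their bar. The 5 open points are of features within the range of silent genes, whose bars reach past 2-fold.

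The fibroblast growth factors of the region were dim on both arrays. FGF3, FGF4 and FGF19 are secreted ligands. FGF3 and FGF4 act in the embryo through FGF receptors, and FGF19 is an endocrine factor that signals through FGFR4 with the coreceptor KLB and lowers bile acid synthesis in liver. FGF3 (NM_005247, chr11:69333917-69343129) had an intensity of 98.4 on the PAX2-labelled array and 118 on the control array. FGF4 (NM_002007, chr11:69296978-69299352) had 18.7 on the PAX2-labelled array and 13.5 on the control array. FGF19 (NM_005117, chr11:69222187-69228287) had 11.5 on the PAX2-labelled array and 12.8 on the control array. FGF4 and FGF19 were below the random-sequence probes on both arrays. FGF3 was 5.10 times the random probes on the PAX2-labelled array and 5.73 times on the control array, yet below the 95th percentile of 398 olfactory receptor features, a family taken here as silent in epithelial cells (126 and 134). No fold is given for these genes, since both values lie in the range of silent genes.

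SHANK2, a scaffold of the postsynaptic density that binds cortactin, was dim as well. Its NM_012309 feature (chr11:69991609-70185520) had an intensity of 18.6 on the PAX2-labelled array and 23.7 on the control array. Its NM_133266 feature (chr11:70012766-70185520) had 14.8 on the PAX2-labelled array and 29.5 on the control array. All 4 values lay within the silent range, so no fold is given.

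The letters before the transcription start are shown for the measured members found in the RefSeq promoter table (GRCh38.p14), because the series asks about activation by a DNA-binding factor. The table matched ORAOV1, FGF3, FADD and PPFIA1, 4 of the 9 genes. The sequences below are the 250 bases before the start, 5′ to 3′ on the gene's strand: chr11:69675354-69675603 (minus strand) for ORAOV1, chr11:70203046-70203295 (plus) for FADD and chr11:70270440-70270689 (plus) for PPFIA1. Capitals mark the GC box GGGCGG and the CCAAT box, each on either strand.
ORAOV1: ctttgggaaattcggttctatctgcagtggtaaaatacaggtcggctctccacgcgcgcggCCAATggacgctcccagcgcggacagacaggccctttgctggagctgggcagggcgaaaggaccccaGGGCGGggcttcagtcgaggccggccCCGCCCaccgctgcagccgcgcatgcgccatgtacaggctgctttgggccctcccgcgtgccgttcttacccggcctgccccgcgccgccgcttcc
FADD: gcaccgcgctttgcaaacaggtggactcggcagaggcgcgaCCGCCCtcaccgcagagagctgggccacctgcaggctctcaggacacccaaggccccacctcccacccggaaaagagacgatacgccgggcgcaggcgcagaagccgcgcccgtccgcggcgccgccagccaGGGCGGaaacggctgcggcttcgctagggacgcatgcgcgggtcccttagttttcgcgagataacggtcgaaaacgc
PPFIA1: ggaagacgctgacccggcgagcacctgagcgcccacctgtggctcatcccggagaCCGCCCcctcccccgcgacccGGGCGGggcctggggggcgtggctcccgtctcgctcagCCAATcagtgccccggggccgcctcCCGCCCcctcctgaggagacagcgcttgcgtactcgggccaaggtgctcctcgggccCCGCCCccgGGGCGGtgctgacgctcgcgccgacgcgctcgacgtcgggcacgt
The core GCGTGAC of the paired-domain motif, searched on both strands, was in none of the 4 windows, FGF3 included, and in 2.20% of all 35116 promoters of the table. These letters are one form of a variable motif, so their absence says nothing about PAX2 binding. The GC box was in 4 of the 4 windows and in 42.6% of all promoters. The CCAAT box was in 3 of the 4, FADD being without it, and in 32.0% of all. The TATA box TATAAA was in none of the 4 and in 10.7% of all. No marked matches overlapped in the sequences shown.

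The measured genes listed beside the members in the band differed in both directions, all by less than 2-fold in the mean over their features. Of 22 symbols listed as 11q13 neighbours 21 were on the array and 10 genes were measured, none of them 2-fold different, with 7 above 0 and 3 below and a median difference of 0.08. CPT1A, the carnitine palmitoyltransferase of fatty acid oxidation, had a mean intensity of 504 on the PAX2-labelled array and 345 on the control array (log2 difference 0.55, with 0.52 and 0.57 in its 2 features). MYEOV, the listed gene nearest to CCND1 on the other side from ORAOV1, had 254 on the PAX2-labelled array and 366 on the control array (-0.53). The Wnt coreceptor LRP5 had a difference of 0.23, the endolysosomal channel TPCN2 0.16, the sterol reductase DHCR7 0.14 and the helicase IGHMBP2 0.08. The phosphatase subunit SAPS3, now PPP6R3, had 0.08, the NAD synthetase NADSYN1 0.02, the mitochondrial ribosomal protein MRPL21 -0.17 and the neuropeptide GAL -0.19. CPT1A thus had a difference about as large as that of CTTN, and MYEOV one of like size in the other direction.

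Between CCND1 and SHANK2 the array held 5 further features, 4 of the calcium-activated chloride channel TMEM16A (ANO1) and 1 of FLJ42258, whose span overlaps the end of CCND1. None of the 5 was measured. Within 2 Mb on either side of the CCND1 start there were 69 features of other genes, 42 of them measured, with a median difference of 0.13. Of these 42 none was 2-fold higher and 2 had a computed difference of at least 2-fold lower, both named after their values were seen. Of all 22705 measured features with a gene identifier 1.66% were 2-fold higher and 1.43% were 2-fold lower. The NM_001039656 feature of MTL5, now TESMIN, had an intensity of 251 on the PAX2-labelled array and 759 on the control array, 3.02-fold lower. The AB126077 feature of the hair keratin-associated protein KRTAP5-8 had 72.4 on the PAX2-labelled array, within the silent range, and 232 on the control array, so it was at least 1.84-fold lower, a bound that does not reach 2-fold. The other 2 features of MTL5 were below the filter, and its mean over 3 features was not measured. KRTAP5-8 had a second feature, annotated elsewhere on chromosome 11 outside this window, with a computed difference of 0.31. The mean of KRTAP5-8 over its 2 features was not measured either.

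**Figure D3:**
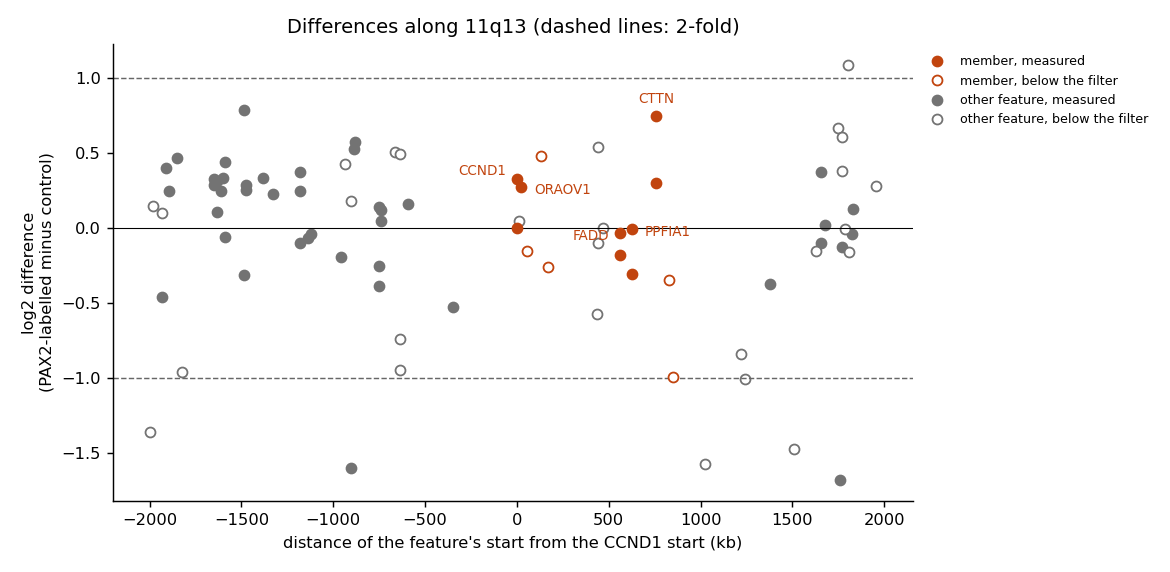
Log2 difference (PAX2-labelled minus control) against the distance in kb of a feature's start from the CCND1 start, for the 83 features within 2000 kb on either side. Features of the 9 genes are coloured, filled points are measured and open points are below the filter, and dashed lines mark 2-fold. No measured feature of the 9 genes lies outside the dashed lines, and 2 measured features of other genes lie below the lower one.

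Genes that act with cyclin D1 were at most about 2-fold different. Of 28 genes of the D-type cyclin and RB list 25 were measured; 1 was 2-fold higher, none was 2-fold lower and 24 did not reach 2-fold, with a median difference of 0.02. The 1 gene was CRYAB, a small heat shock protein reported to help an F-box ligase degrade cyclin D1, with 511 on the PAX2-labelled array and 249 on the control array in 1 feature (2.05-fold). It was below 2-fold after quantile normalization or loess. The kinase CDK4 had a mean of 15093 on the PAX2-labelled array and 17119 on the control array (-0.18). CDK6 had 1322 on the PAX2-labelled array and 1030 on the control array (0.36, with 0.11 and 0.61 in its 2 features). RB1 had 325 on the PAX2-labelled array and 390 on the control array (-0.26). The other D-type cyclins had differences of -0.18 for CCND2 and 0.22 for CCND3, of a size like that of CCND1.

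Of 22 FGF receptor and transducer genes 14 were measured and none differed 2-fold, with a median of -0.02. FGFRL1, a receptor-like protein without a kinase domain, had the largest increase, with 1654 on the PAX2-labelled array and 1043 on the control array (0.67, with 0.47 and 0.86 in its 2 features). SPRY4, a feedback inhibitor of receptor signalling, had the largest decrease, with 136 on the PAX2-labelled array and 213 on the control array (-0.64, in 1 feature). SPRY4 counted as measured only through the control array, and its value on the PAX2-labelled array was close to the silent limit of 126. FGFR4, the main receptor of FGF19, was measured (-0.16), and KLB was below the filter on both arrays.

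Of 16 death receptor genes reported here 11 were measured and none of these 11 differed 2-fold, with a median of 0.05. Among the receptors, FAS had a difference of 0.44, TNFRSF1A -0.02 and TNFRSF10A -0.23, each in 1 feature. FAS was dim, with 229 on the PAX2-labelled array and 169 on the control array. TNFRSF10B had a mean of 0.05, with -0.36 to 0.53 over its 3 features. TNFRSF25 had a mean of -0.09, with -1.34 to 0.61 over its 6 features. Among the proteins that meet FADD or its receptors inside the cell, CFLAR had 0.49, TRADD 0.35, RIPK1 0.16 and CASP8 -0.05. The mean intensity of CFLAR was 246 on the PAX2-labelled array and 175 on the control array. FAS and CFLAR were below the filter on the control array and counted as measured only through the PAX2-labelled array. The features of TRADD (-0.11 and 0.81) and CASP8 (-0.28 to 0.19) lay on both sides of 0.

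Of 27 cortactin and ARP2/3 genes 23 were measured and none differed 2-fold, with a median of -0.03. DNM2, the dynamin that binds cortactin at membranes, had 6911 on the PAX2-labelled array and 4814 on the control array (0.52, with 0.42 to 0.57 over its 3 features). NCKAP1, a subunit of the WAVE complex, had 511 on the PAX2-labelled array and 709 on the control array (-0.47). The difference of DNM2 was the same size as that of CTTN, and no ARP2/3 subunit was as different.

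Of 25 symbols of liprin and SHANK scaffolds 24 were on the array, 14 were measured and none differed 2-fold, with a median of 0.19. PPFIA3, another liprin-alpha, had a mean of 254 on the PAX2-labelled array and 131 on the control array (0.87 and 1.04 in its 2 features). The control mean lay just below the silent limit of 134, although not all of its features did. Against that limit the mean was at least 1.89-fold higher. PPFIA3 was below the filter on the control array and counted as measured only through the PAX2-labelled array. PTPRS (0.67, with 0.61 to 0.79 over its 3 features) and PPFIBP2 (0.67, with 0.35 and 0.98 in its 2 features) were also past 1.5-fold. SHANK3 had 503 on the PAX2-labelled array and 643 on the control array (-0.35). Of the 14 measured genes 10 were above 0 and 4 below. Of 9 symbols for the partners of ORAOV1 8 were on the array and measured, none differed 2-fold, and the median was -0.10. ABCE1 itself had a difference of -0.15. The largest differences of this list were 0.41 for NARFL, now CIAO3, and -0.18 for WDR39, now CIAO1, both of the cytosolic iron-sulphur assembly machinery.

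**Figure D4:**
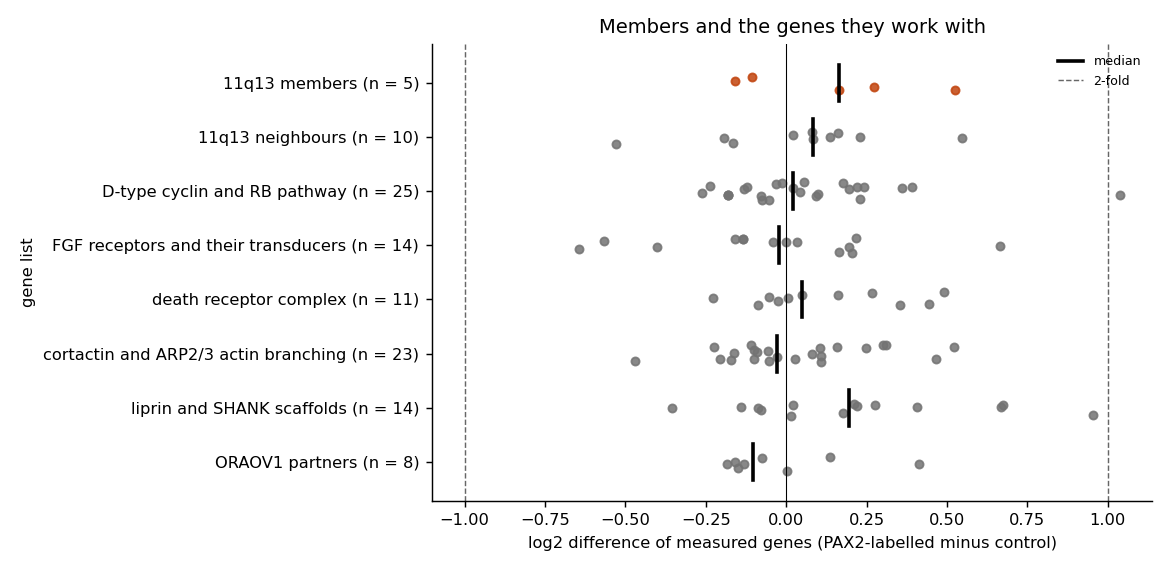
Log2 difference (PAX2-labelled minus control) of the measured genes of each list, 1 point a gene, with the median as a bar and 2-fold as dashed lines. The 5 measured members lie between -0.16 and 0.52, and 1 gene of the other lists shown, CRYAB, lies beyond 2-fold.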

How the data were processed

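The files hold 1 value per feature and array. Per the submitters' processing notes the authors summarised the arrays with RMA; how it was set, and on how many arrays at once, is not given in the sources used here. What the authors deposited are linear intensities, from 3 probes for 45031 of 45033 features, plus a row for 5000 random-sequence probes, per the file headers. The deposited series table repeats them in every row. Gene names and positions are those of the array's design on HG18; starts are counted from 0 in the files and were moved by 1. This was checked against gene lengths of the reference table, which equalled the span of 817 features counted that way and of 299 otherwise.

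A difference is the log2 intensity on the PAX2-labelled array less that on the control array, taken without a pseudocount or further normalization and averaged over the features of a gene. The filter was the 50th percentile of all features on at least 1 array, and calls were made at 2-fold. Values at or below the 95th percentile of olfactory receptor features were treated as silent: on 1 array the fold is a bound against that percentile, and on both none is given. Genes are named by the file, with current symbols from the reference table (GRCh38.p14), which matched 38916 of 42947 features with an identifier.

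The members and lists were chosen with earlier results of these data known, and some genes of the death receptor list are not reported here and are left out of its counts. All members and all measured neighbours are named; in the other lists, genes past 2-fold or else the largest difference each way, plus CDK4, CDK6 and RB1; further genes are examples chosen after their values were seen. The alternatives replaced the values (series table), the scaling (centring on medians, quantiles, or loess with fraction 0.3) or the feature summary (brightest feature), or used an offset of 64, no filter, a 75th percentile filter, 1.5-fold and 3-fold thresholds, and matching of members by identifier. The counting was tested on simulated data. Python 3.11.15, pandas 2.3.3 and statsmodels 0.14.6 were used.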

Additional observations from a re-analysis of the deposited data

How the results depend on the processing

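No paired analysis was possible because there was a single array per vector. No measured member was 2-fold different after centring, quantile normalization or loess, and none with no filter. The offset, which shrinks every ratio, the series table, the stricter filter, the 3-fold threshold and matching by identifier could not add one. Neither could the brightest feature, since no measured member feature was 2-fold different. The differences of the 5 measured genes kept their sign after centring, quantile normalization or loess. The brightest feature and the offset could not change a sign, since no measured member had features on opposite sides of 0. Over all these settings CTTN ranged from 0.30 (brightest feature) to 0.52, CCND1 from 0.13 to 0.33 and ORAOV1 from 0.24 to 0.27. FADD ranged from -0.18 to -0.10 and PPFIA1 from -0.31 to -0.15. Among the genes in the silent range, whose differences are those of background, SHANK2 was -0.35 with the brightest feature and -0.17 with the offset of 64, and FGF4 was 0.095 with the offset. The 4 members with both features on the same side of 0 became 3 with each of the 3 rescalings, a check added after seeing the data. The median of the members was -0.11 with no filter, which adds the 4 dim genes. At 1.5-fold 1 of 9 measured member features was higher, where 10.6% of all measured features differed that much in either direction. Of 14 measured FGF genes 1 was higher and 1 lower, and of 14 measured scaffold genes 3 were higher and 0 lower. Of all 11636 measured genes 524 were higher and 373 lower at that threshold, 7.71% in either direction. The 1 higher gene of the cyclin list became 0 with quantile normalization, loess, the offset, the 75th percentile filter and 3-fold. With the brightest feature 1 neighbour was lower. Over all genes the 132 higher and 135 lower became 217 and 260 (brightest feature), 757 and 965 (no filter), 21 and 11 (75th percentile filter), 524 and 373 (1.5-fold), 28 and 55 (3-fold), and 69 and 91 (offset). The counts changed by construction where more or fewer genes were tested (no filter or the 75th percentile filter) or the threshold moved. The offset shrinks every ratio. For the brightest feature the cause of the change was not tested. Low signal over background limits FGF3, FGF4, FGF19 and SHANK2.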
